A study of Mus musculus with 4 samples.

Results

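The genes described here are the 10 mouse genes of the dual specificity MAP kinase phosphatase family, Dusp1, Dusp2, Dusp4, Dusp5, Dusp6, Dusp7, Dusp8, Dusp9, Dusp10 and Dusp16. They were taken by name from the joined table of transcript abundances scaled to length and library (TPM), where they make up 10 of 55267 entries, each on a single row. MuSCs were cultured from muscles of 9-week-old female C57BL/6N(Tg(Pax7-EGFP)Tajb) mice, in which a Pax7-driven EGFP transgene marks satellite cells, and were enriched by sorting for GFP. After culture, all cells spent 6 h in serum-free medium with 200 ng/mL of the soluble receptor BMPR-1A-Fc, which binds BMPs left in the culture. BMP6 was then given at 100 ng/mL for 1 h to 2 of the 4 cultures, and the 2 controls received the vehicle, 4 mM HCl with 0.1% BSA. The labels put a BMP6 and a control library in each of 2 biological replicates, and do not say how many animals a replicate holds.

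MAP kinase phosphatases switch MAP kinases off by removing the phosphates from both the threonine and the tyrosine of the activation loop. The family is usually divided into inducible nuclear enzymes (Dusp1, Dusp2, Dusp4 and Dusp5), cytoplasmic enzymes selective for ERK (Dusp6, Dusp7 and Dusp9) and enzymes selective for JNK and p38 (Dusp8, Dusp10 and Dusp16). Several of the genes are immediate early or delayed early genes whose short-lived transcripts answer to the kinases that their products inactivate, and p38 and Dusp1 are known to take part in the choice between quiescence, proliferation and differentiation of MuSCs.

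The 4 libraries each held 108000000 to 112000000 reads rebuilt from coverage, and 13002 to 13203 entries reached 1 TPM. All 8 muscle stem cell markers examined reached 1 TPM, and their summed level ran from 6701 to 7662 TPM. Most of that sum was Myog at 4400 to 5472 TPM, a gene that the study ties to terminal differentiation. Pax7, which the study ties to quiescent and proliferating MuSCs, had 8.29 to 11.65 TPM. None of the 4 endothelial and none of the 4 Schwann cell markers reached 1 TPM, and of the 4 immune markers only Cd68 did, at 1.68 TPM at most. Of 6 fibroblast markers, 5 reached 1 TPM, and their sum was 428 and 309 TPM in BMP6 replicates 1 and 2 against 427 and 353 TPM in the controls. Of 5 pericyte or smooth muscle markers, 3 reached 1 TPM, with a sum of 2916 to 3259 TPM carried by Acta2. The BMP6 and control libraries overlapped in the fibroblast sum, and both BMP6 libraries lay below both controls in the pericyte or smooth muscle sum (2955 and 2916 against 3107 and 3259 TPM). That difference was one of Acta2 alone (2947 and 2906 against 3100 and 3251 TPM). In the same list, Cspg4 (3.30 and 3.95 against 2.05 and 3.25 TPM) and Rgs5 lay above both controls in both BMP6 libraries. Pdgfrb and Myh11 overlapped. Whether these differences had a part in the results below was not tested.

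The start regions of the genes whose 2 BMP6 libraries both lay outside the range of the 2 controls are shown first. TGACG, 1 of the motifs searched, was picked out because it was found in those that were higher and not in those that were lower. Being picked from these same data, this match is not a test. TGACG was also found in Dusp2, Dusp5 and Dusp16, whose groups overlapped. Dusp8 was higher through its last exon, and its other exons taken as one gave overlapping groups. The sequences are RefSeq promoters from a table of build GRCm38.p6, each of which matched the GRCm39 genome exactly once, and are given 5′ to 3′ on the gene's strand from 250 to 51 bases before the RefSeq start. Capitals mark TGACG, the core of the cAMP response element, on either strand, and GGCGCC, a GC-rich sequence that SMAD1/5 proteins bind. The whole palindromic cAMP response element, TGACGTCA, contains TGACG on both strands, so each whole element also counts as a pair of overlapping cores. The first 2 sequences belong to the genes that were higher with BMP6, and the last 2 to the genes that were lower.
Dusp1, chr17:26727497-26727696, minus strand: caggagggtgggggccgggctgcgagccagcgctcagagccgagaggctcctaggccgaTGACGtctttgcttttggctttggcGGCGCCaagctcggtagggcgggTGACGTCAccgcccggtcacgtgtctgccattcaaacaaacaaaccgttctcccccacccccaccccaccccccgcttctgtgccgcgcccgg
Dusp8, chr7:141649072-141649271, minus strand: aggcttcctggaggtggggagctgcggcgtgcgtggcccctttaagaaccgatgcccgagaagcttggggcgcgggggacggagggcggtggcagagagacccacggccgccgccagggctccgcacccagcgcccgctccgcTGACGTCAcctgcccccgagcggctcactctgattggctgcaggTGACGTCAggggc
Dusp10, chr1:183766328-183766527, plus strand: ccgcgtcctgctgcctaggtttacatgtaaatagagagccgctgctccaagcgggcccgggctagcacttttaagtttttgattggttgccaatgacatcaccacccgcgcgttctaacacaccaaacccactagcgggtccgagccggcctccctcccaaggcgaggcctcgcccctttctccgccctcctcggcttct
Dusp6, chr10:99098843-99099042, plus strand: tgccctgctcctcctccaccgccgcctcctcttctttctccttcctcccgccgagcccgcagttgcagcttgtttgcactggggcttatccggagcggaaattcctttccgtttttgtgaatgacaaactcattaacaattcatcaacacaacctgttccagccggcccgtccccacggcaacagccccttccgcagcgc

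Promoters were found for 8 of the 10 members, and Dusp4 and Dusp9 had no entry. Over the whole 300-base windows, from 250 bases before to 50 bases after the start, TGACGTCA stood in 2 of the 8 promoters, once in Dusp1 (position -143) and in duplicate in Dusp8 (positions -107 and -63). Of all 32851 promoters in the table, 1.79% hold it. The core TGACG stood in 5 of the 8 (Dusp1, Dusp2, Dusp5, Dusp8 and Dusp16) against 20.8% of all promoters, and neither Dusp10 nor Dusp6 had it. GGCGCC stood in Dusp1 (position -166), Dusp2, Dusp5 and Dusp7, 4 of the 8, against 11.9% of all promoters. The AP-1 site TGANTCA (7.81% of all promoters), the TATA box core TATAAA (13.6%) and the SMAD palindrome GTCTAGAC (0.213%) stood in none of the 8. The E-box CANNTG stood in 6 of the 8 against 72.3% of all promoters, and the Sp1 box GGGCGG in 7 of the 8, all but Dusp6, against 35.7%. From 57.3% (Dusp6) to 78.7% (Dusp7) of the bases in the 8 windows were G or C. The shares of all promoters were not matched for this, so they do not separate motif content from base composition. These are matches of letters in short windows, searched on both strands, and the data hold no measure of binding to them.

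TPM is scaled per length, so the levels of the genes can be ranked. Dusp1 was highest with a mean of 139 TPM over the 4 libraries, followed by Dusp10 with 30.2, Dusp8 with 10.4, Dusp5 with 6.04 and Dusp2 with 4.94 TPM. Dusp6 followed with 3.43, Dusp16 with 2.92, Dusp4 with 2.01, Dusp7 with 1.03 and Dusp9 with 0.987 TPM. Dusp1, Dusp10 and Dusp8 did not overlap one another in any library, nor did Dusp2 and Dusp6, or Dusp4 and Dusp7. The neighbours Dusp8 and Dusp5, Dusp5 and Dusp2, Dusp6 and Dusp16, Dusp16 and Dusp4, and Dusp7 and Dusp9 overlapped and were not separated beyond the spread of the libraries. The order by FPKM was the same. The place of Dusp8 rested on its last exon: from all exons but the last it had 0.455 to 0.789 TPM, below the lowest library of Dusp5, Dusp2, Dusp6, Dusp16 and Dusp4, and from the last exon alone it lay above Dusp10 in both BMP6 libraries (22.2 and 17.9 against 17.4 and 14.1 TPM).

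**Figure D1:**
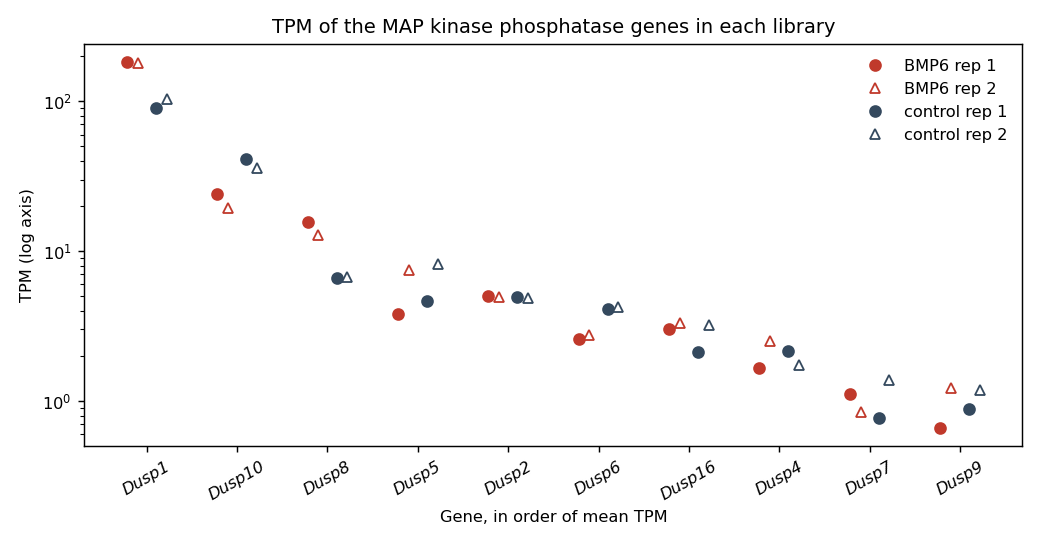
TPM of the 10 genes on a log axis, with red marks for BMP6 and dark marks for control libraries, circles for replicate 1 and open triangles for replicate 2. Both red marks lie above both dark marks for Dusp1 (182 and 181 against 90.6 and 104 TPM) and Dusp8, and below them for Dusp10 and Dusp6, while the other 6 genes overlap.

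The comparison of BMP6 with control asked which of the phosphatase genes had changed within 1 h of stimulation. Dusp1 rose, Dusp8 was higher and Dusp10 was lower by about as much, and Dusp6 was lower by less, while the other 6 genes gave overlapping groups. Of the 10 genes, 9 reached the mean of 1 TPM required for testing. In limma on log2(TPM + 1) with Benjamini-Hochberg adjustment over 13128 entries, 1 of these 9 passed an adjusted p of 0.1 as higher (Dusp1), beside 0.236% of all tested entries. None passed as lower, beside 0.00762%. None of the 9 also passed the 2-fold limit, beside 0.206% of all tested entries for higher and 0.00% for lower. At an unadjusted p of 0.05, 2 were higher (Dusp1 and Dusp8) and 2 lower (Dusp10 and Dusp6), beside 2.34% and 0.861% of all tested entries. The groups did not overlap for the same 4 genes, and 16.6% of all tested entries lay entirely above and 11.6% entirely below control. The median log2 fold change of the 9 genes was 0.010, against 0.016 over all tested entries.

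Same-numbered libraries share a biological replicate in the labels, and with that replicate block the calls on the family increased. With the block 2 genes were higher (Dusp1 and Dusp8) and 1 lower (Dusp10) at the same adjusted p, beside 1.23% and 0.404% of all tested entries. Under voom on the rebuilt reads with the block, Dusp6 was lower as well, beside 0.602% of all tested entries called lower and 1.52% called higher. With 2 libraries against 2, an exact permutation test of a single gene cannot give a p under 0.333, so the tests rest on a spread shared across genes. In these bulk libraries, less RNA per cell and fewer cells with the transcript cannot be told apart.

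Among the inducible nuclear enzymes, Dusp1, which inactivates p38, JNK and ERK, had 182 and 181 TPM in BMP6 replicates 1 and 2 and 90.6 and 104 TPM in control replicates 1 and 2. Both BMP6 libraries lay far above both controls, and the 2 BMP6 libraries differed by less than the controls did. The log2 fold change of Dusp1 was 0.90 (SE 0.10, 95% interval 0.66 to 1.13, limma adjusted p = 0.0590), with 1.00 in the replicate 1 pair and 0.79 in the replicate 2 pair. In TPM, the BMP6 library was 2.01 and 1.74 times its control. By p-value Dusp1 was number 21 of the 13128 entries. The adjusted p of Dusp1 ran from 0.000209 to 0.873 over the alternatives, and it was 0.161 without control replicate 1, at a log2 fold change of 0.80.

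Dusp5, a nuclear phosphatase of ERK, had 3.83 and 7.51 TPM with BMP6 and 4.62 and 8.21 TPM in the controls. Its level followed the replicate number, with both replicate 2 libraries above both replicate 1 libraries, and the groups overlapped. The log2 fold change was -0.17 (SE 0.34, limma adjusted p = 1).

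Dusp2, which inactivates ERK and p38 and is best known from lymphocytes, had 4.99 and 4.92 TPM with BMP6 and 4.97 and 4.86 TPM in the controls. The 4 libraries lay close together, and the groups overlapped. The log2 fold change of Dusp2 was 0.01, with a 95% interval from -0.32 to 0.34. Dusp4, a nuclear phosphatase of ERK and JNK, had 1.66 and 2.51 TPM with BMP6 and 2.14 and 1.75 TPM in the controls. The groups overlapped and the pairs went opposite ways, at log2 fold changes of -0.24 and 0.36.

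Among the cytoplasmic ERK phosphatases, Dusp6, a feedback inhibitor of ERK signalling downstream of FGF receptors, had 2.60 and 2.76 TPM with BMP6 and 4.11 and 4.23 TPM in the controls. Both BMP6 libraries lay below both controls, and the gap was wider than the difference within either group. The log2 fold change of Dusp6 was -0.49 (SE 0.14, 95% interval -0.83 to -0.15), and its limma adjusted p of 1 did not pass. On the TPM scale, where no pseudocount was added, BMP6 gave 0.632 and 0.652 times the control. With the replicate block the limma adjusted p was 0.120, and with voom on the rebuilt reads and the block it was 0.0719 at a log2 fold change of -0.67, the lowest of a range that reached 1 over the alternatives.

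Dusp7, another cytoplasmic phosphatase of ERK, had 1.11 and 0.848 TPM with BMP6 and 0.767 and 1.39 TPM in the controls. The groups overlapped and the pairs went opposite ways. Dusp9, the X-linked member of this subfamily, had 0.664 and 1.22 TPM with BMP6 and 0.890 and 1.18 TPM in the controls. It was the only member whose mean fell short of 1 TPM and was not tested, and its groups overlapped.

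Among the phosphatases of JNK and p38, Dusp10 had 24.0 and 19.4 TPM with BMP6 and 41.3 and 35.9 TPM in the controls. Both BMP6 libraries lay below both controls without overlap. The log2 fold change of Dusp10 was -0.81 (SE 0.14, 95% interval -1.15 to -0.46), with -0.76 and -0.85 in the pairs, and its limma adjusted p of 0.320 did not pass (unadjusted p = 0.00132). With the replicate block it fell, with a limma adjusted p of 0.00134. Over the alternatives the adjusted p of Dusp10 ran from 0.000471 to 1, and without BMP6 replicate 1 it was 0.0876 at a log2 fold change of -0.95.

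Dusp8, which also inactivates JNK and p38 and is best known from brain and heart, had 15.7 and 12.8 TPM with BMP6 and 6.65 and 6.67 TPM in the controls. Both BMP6 libraries lay above both controls, which were almost equal. The log2 fold change of Dusp8 was 0.98 (SE 0.14, 95% interval 0.63 to 1.34), with 1.12 and 0.84 in the pairs, and its limma adjusted p of 0.168 did not pass (unadjusted p = 0.000521). With the replicate block it was called higher, with a limma adjusted p of 0.00226. Over the alternatives the adjusted p of Dusp8 ran from 0.000632 to 1, and without BMP6 replicate 2 it was 0.0961 at a log2 fold change of 1.12. Nearly all of this signal lay in the last exon, as described with the exons.

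Dusp16, the third JNK and p38 phosphatase, had 3.01 and 3.33 TPM with BMP6 and 2.14 and 3.21 TPM in the controls. The groups overlapped, and the log2 fold change was 0.20 (SE 0.19, 95% interval -0.26 to 0.66).

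**Figure D2:**
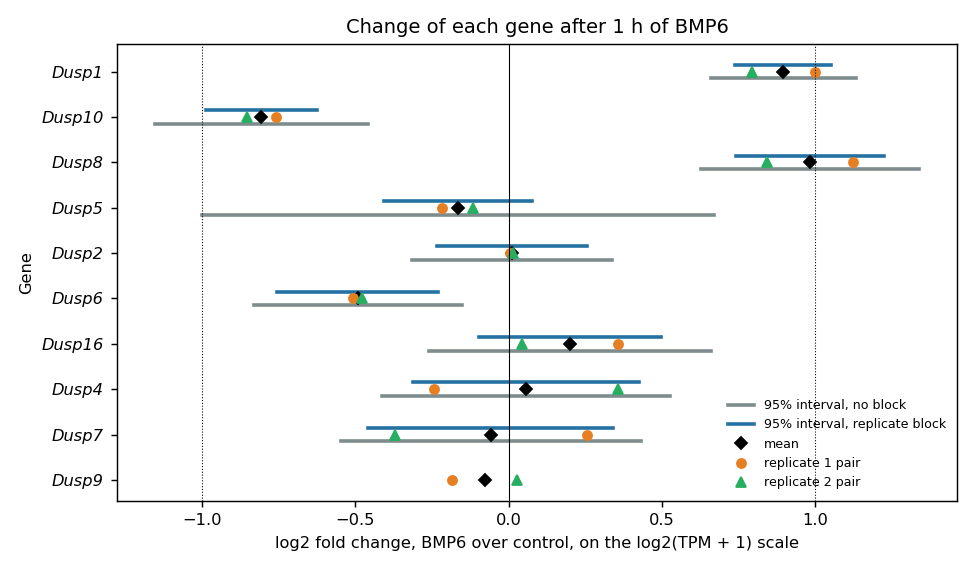
Log2 fold change of each gene, BMP6 over control, on the log2(TPM + 1) scale, with diamonds for the mean, circles and triangles for the replicate 1 and 2 pairs, and bars for the 95% interval without (grey) and with (blue) the replicate block; dotted lines mark a 2-fold change. Dusp1 (0.90), Dusp8 (0.98), Dusp10 (-0.81) and Dusp6 (-0.49) have intervals that leave out 0, and Dusp9 was not tested.

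The make-up of the phosphatase transcripts differed between the groups. The 10 genes summed to 240 and 236 TPM with BMP6 and to 158 and 171 TPM in the controls, and both BMP6 libraries lay above both controls. Without Dusp1 the sums were 57.5 and 55.3 TPM with BMP6 and 67.6 and 67.4 TPM in the controls, so the order of the groups turned. This turn rested on Dusp10 (24.0 and 19.4 TPM with BMP6, 41.3 and 35.9 TPM in the controls), which did not pass the main test. Among the other genes in these sums, Dusp8 was higher, Dusp6 was lower and the rest overlapped. Dusp1 made up 76.0% and 76.6% of the summed TPM with BMP6 and 57.3% and 60.6% in the controls. Dusp10 made up 10.0% and 8.24% with BMP6 and 26.1% and 21.0% in the controls.

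Within the JNK and p38 phosphatases, the TPM of the whole Dusp10 and Dusp8 entries lay closer together with BMP6, although neither gene passed the test without the replicate block. This restates their opposite differences and rests on the last exon of Dusp8. The ratio of Dusp10 to Dusp8 in TPM was 1.53 and 1.52 with BMP6 and 6.21 and 5.38 in the controls. From the last exon alone it was 0.786 and 0.789 with BMP6 and 3.14 and 2.85 in the controls, so the order of the 2 genes turned with BMP6 while the ratio stayed lower than in the controls. From all exons but the last, the 2 genes lay far apart in every library. Dusp10 then had 30.3 and 24.5 TPM with BMP6 and 52.5 and 44.9 TPM in the controls. Dusp8 had 0.789 and 0.455 TPM with BMP6 and 0.552 and 0.532 TPM in the controls. The 3 genes of this subfamily summed to 42.7 and 35.5 TPM with BMP6 and to 50.1 and 45.8 TPM in the controls. The cytoplasmic ERK phosphatases summed to 4.37 and 4.82 TPM with BMP6 and to 5.77 and 6.79 TPM in the controls. Both sums were lower in both BMP6 libraries than in either control, as a description of values that include the genes named above.

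**Figure D3:**
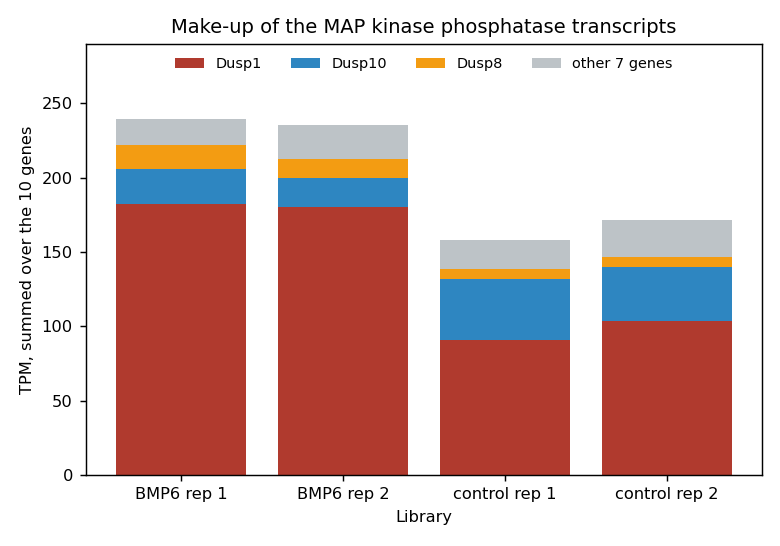
TPM summed over the 10 genes in each library, as stacked bars for Dusp1, Dusp10, Dusp8 and the other 7 genes. The bars reach 240 and 236 TPM with BMP6 and 158 and 171 TPM in the controls, with a larger Dusp1 part and a smaller Dusp10 part with BMP6.

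The depth over single exons showed where along each transcript the signals lay. It is given for the most abundant transcript as mean depth scaled to 100000000 rebuilt reads per library, with exons numbered 5′ to 3′ and positions on GRCm39. For Dusp1 (ENSMUST00000025025.7, chr17:26724564-26727493, minus strand) all 4 exons were higher in both pairs, with log2 ratios between 0.72 and 1.01. For Dusp10 (ENSMUST00000048655.8, chr1:183766578-183807833, plus strand) all 4 exons were lower in both pairs, with log2 ratios between -0.92 and -0.75. For Dusp6 (ENSMUST00000020118.5, chr10:99099093-99103351, plus strand) all 3 exons were lower in both pairs, with log2 ratios between -0.98 and -0.67. In these 3 genes the difference thus ran along the whole transcript.

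Dusp8 (ENSMUST00000039926.10, chr7:141633227-141649009, minus strand) was unlike them. Exon 7, the last of its 7 exons (chr7:141633227-141636767, 3541 bases, of which 33.0% are coding in GENCODE M39), had a depth of 119 and 95.3 with BMP6 and 50.3 and 50.0 in the controls. The other 6 exons together had a depth of 4.62 and 2.60 with BMP6 and 3.27 and 3.10 in the controls. Exon 7 was higher in both pairs, with log2 ratios of 1.24 and 0.93, while of the other 6 exons 2 were higher (exons 2 and 5) and 2 lower (exons 1 and 6) in both pairs, and taken as one they gave overlapping groups.

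Exon 7 is 73.7% of the length of the transcript but held 97.7% to 99.0% of its sequenced bases in the 4 libraries. Its depth was 15.4 to 36.7 times that of the other Dusp8 exons. In the other 9 genes the last exon had 0.508 to 4.50 times the depth of the rest. In rebuilt reads, exon 7 held 4207 and 3374 with BMP6 and 1780 and 1772 in the controls, and the other 6 exons held 58 and 33 with BMP6 and 41 and 39 in the controls. At that depth, exons 1 to 6 of Dusp8 alone came to less than 1 TPM (0.789 and 0.455 with BMP6, 0.552 and 0.532 in the controls) and was not tested.

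When only the last exon of every transcript was used, the log2 fold change of Dusp8 was 1.02 (SE 0.16, limma adjusted p = 0.220), and when the last exon was left out, Dusp1 had a log2 fold change of 0.92 (SE 0.10, limma adjusted p = 0.0907) and Dusp10 one of -0.81 (SE 0.14, limma adjusted p = 0.533). Both of these alternatives were chosen after the exon depths had been seen. No exon of another gene in GENCODE M39 overlaps exon 7 of Dusp8, and the one transcript of another gene that matched Dusp8 over at least 100 bases at 95% identity was that of Gm73912, which overlaps exons 5 and 6. Whether the reads over exon 7 came from the Dusp8 mRNA was not tested, so the TPM, fold change and calls of Dusp8 given here are those of the entry and may not be those of the message that encodes the phosphatase.

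**Figure D4:**
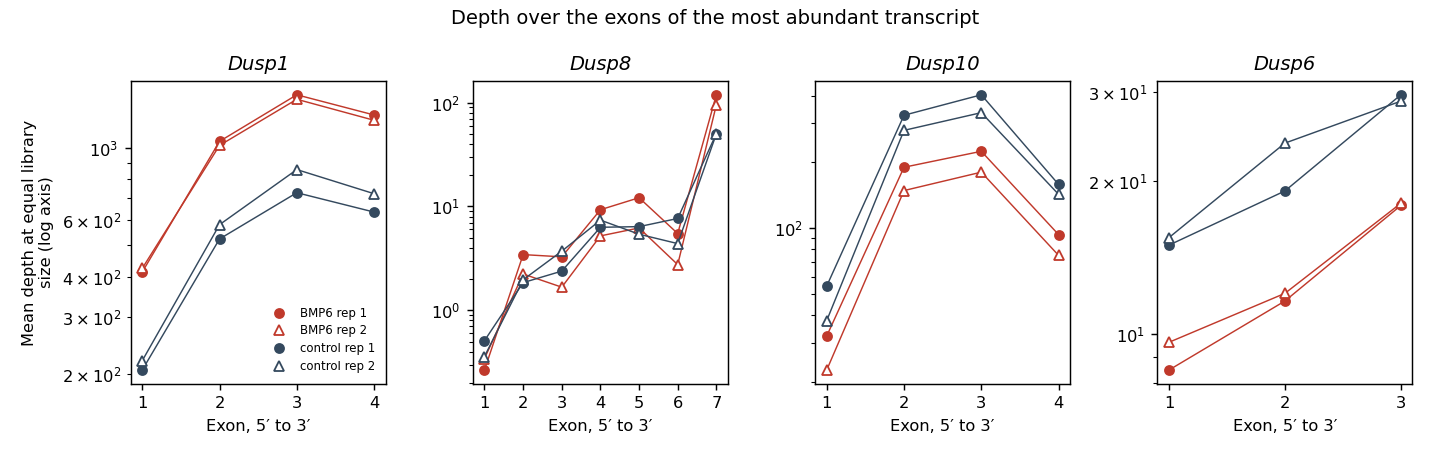
Mean depth, scaled to 100000000 rebuilt reads per library (log axis), over the exons of the main transcript of Dusp1, Dusp8, Dusp10 and Dusp6, with red for BMP6 and dark for control libraries, circles for replicate 1 and triangles for replicate 2. The groups are apart in every exon of Dusp1, Dusp10 and Dusp6, and exon 7 of Dusp8, at 119 and 95.3 against 50.3 and 50.0, stands far above the other exons of that gene.

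The unstranded libraries do not separate a gene from transcripts on the other strand. In GENCODE M39, non-coding genes on the opposite strand overlap exons of 6 members, Dusp2, Dusp5, Dusp6, Dusp8, Dusp10 and Dusp16. The overlap covered 23.6% of the Dusp6 exons (Gm56965 in exon 1, 660 bases), 26.8% of those of Dusp2 (Gm74572) and 22.1% of those of Dusp5 (Gm50394). It covered 3.21% and 4.16% of those of Dusp8 and Dusp10. The other 2 exons of Dusp6 lie outside the overlap with Gm56965, and both were lower in both pairs. Exon 3 of Dusp6 overlaps a further gene on the opposite strand, Gm34921, over 84 bases. Gm34921 was listed at 0 TPM in each library. Whether transcripts of the other strand had a part in the Dusp6 values was not tested. No exon of another gene overlapped the main Dusp1 transcript.

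The transcripts differ in their 3′ parts as well. ATTTA, the core of AU-rich elements that mark short-lived messages, was counted in the 3′ UTR of the member transcripts in GENCODE M39. Dusp2 had 4 in 581 bases (6.88 per kb) and Dusp1 had 4 in 690 bases (5.80 per kb), densities that 2.28% and 3.67% of 10700 tested coding genes reached. By number alone, 33.1% of these coding genes had at least 4, and their median 3′ UTR was longer, at 1322 bases. Dusp10 had 2.67 and Dusp8 2.11 per kb, against a median of 1.37 per kb. Dusp6 had 1 in 1200 bases (0.833 per kb), and Dusp7 had none. Dusp2, with the highest density, had a log2 fold change of 0.01.

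None of the MAP kinases was called, beside 0.236% of all tested entries called higher and 0.00762% called lower, shares at which a list of this length would seldom hold a call. Of 14 MAP kinases, 11 were tested and none passed the adjusted p in either direction, with or without the replicate block, and none had an unadjusted p under 0.05. With the block, 1.23% of all tested entries were called higher and 0.404% lower. At the unadjusted p without the block, 2.34% were higher and 0.861% lower. Their median log2 fold change was 0.020, against 0.016 over all tested entries. Mapk6, which encodes ERK3, had the highest level, with a mean of 97.1 TPM and a log2 fold change of -0.03. The largest differences were those of Mapk8 (JNK1) at 0.35 and Mapk4 (ERK4) at 0.34, with SEs of 0.23 and 0.17.

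Of 24 MAP kinase kinases and their activators, 18 were tested and none passed or had an unadjusted p under 0.05, with a median log2 fold change of 0.027. Over all tested entries, 0.236% were called higher and 0.00762% lower. At the unadjusted p, 2.34% were higher and 0.861% lower. At these shares a list of this length would often hold no call. The Raf kinase Araf (mean 202 TPM) had a log2 fold change of -0.04 and Map2k1 (MEK1, mean 173 TPM) one of 0.03. The largest differences were -0.39 for Map3k3 (SE 0.56) and 0.34 for Map3k1 (SE 0.16), both kinases at the top of MAP kinase cascades.

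Other phosphatases gave no call either, beside 0.236% of all tested entries called higher and 0.00762% called lower. Of 9 further genes whose products act on MAP kinases or resemble those that do, 5 were tested and none passed, with a median log2 fold change of 0.069. The catalytic subunit gene Ppp2ca of protein phosphatase 2A had a mean of 198 TPM and a log2 fold change of -0.16, and Ppm1b, of the metal-dependent family, 177 TPM and 0.07. The largest differences were 0.27 for Ppp2cb (SE 0.26) and -0.21 for Ppm1a (SE 0.22). Of 19 entries for atypical dual specificity and Slingshot phosphatases, which lack the kinase-binding domain of the MAP kinase phosphatases, 14 were tested. None passed, and none had an unadjusted p under 0.05, beside 2.34% of all tested entries higher and 0.861% lower. At these shares lists of these lengths would often hold no call. The median log2 fold change of the 14 was 0.026, and the values ran from -0.09 to 0.25, the highest being that of the Slingshot gene Ssh2, a cofilin phosphatase. Those of the 9 MAP kinase phosphatases ran from -0.81 to 0.98. Dusp14 (mean 150 TPM) and Dusp3 (mean 148 TPM) were at about the level of Dusp1, with log2 fold changes of -0.08 and 0.13.

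Transcripts known to answer to ERK activity were mixed. Of 18 such genes 12 were tested, with a median log2 fold change of 0.050, and 1 rose, Ier3, an immediate early gene of stress and growth factor responses, beside 0.236% of all tested entries called higher and 0.00762% called lower. Ier3 had 23.1 and 22.4 TPM with BMP6 and 10.5 and 11.4 TPM in the controls, with a log2 fold change of 0.99 (SE 0.12, limma adjusted p = 0.0721). The Sprouty genes, which encode feedback inhibitors of receptor tyrosine kinases, went opposite ways. Spry2 had 53.1 and 52.6 TPM with BMP6 and 30.7 and 25.8 TPM in the controls (log2 fold change 0.88, limma adjusted p = 0.107), and both BMP6 libraries lay above both controls. Spry1 had 35.3 and 54.9 TPM with BMP6 and 48.7 and 79.7 TPM in the controls (log2 fold change -0.49, limma adjusted p = 1), and the groups overlapped while both pairs were lower.

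With the replicate block, 3 genes of this list rose (Ier3, Spry2 and Phlda1, the last named after its value was seen) and 1 fell (Spry1), with limma adjusted p-values of 0.000771 for Ier3, 0.00101 for Spry2 and 0.0136 for Spry1. With the block 1.23% of all tested entries were called higher and 0.404% lower. Egr1, an immediate early gene that follows ERK activity, had a mean of 66.6 TPM and a log2 fold change of -0.18 (SE 0.12). The list was chosen with earlier results of these data known.

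**Figure D5:**
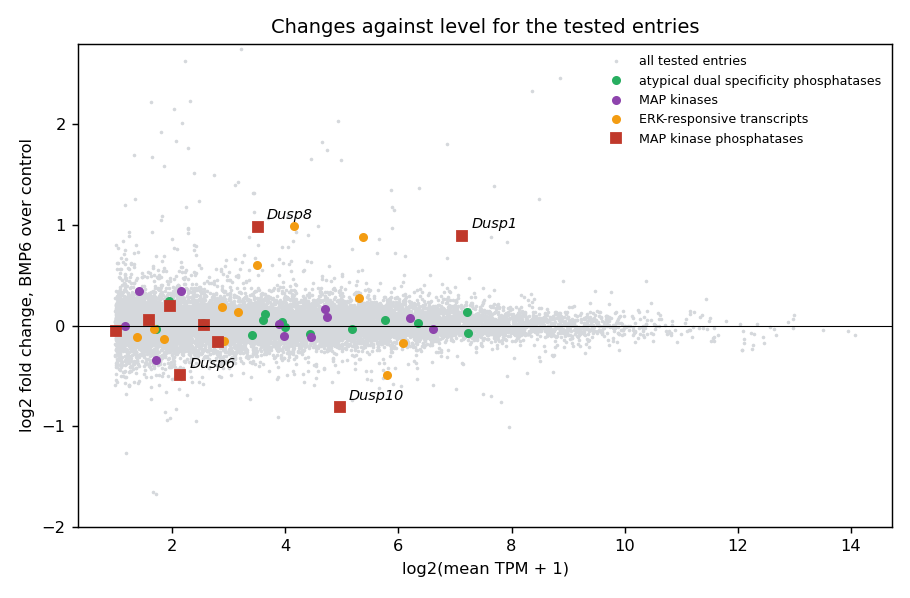
Log2 fold change against log2(mean TPM + 1) for the 13128 tested entries (grey, 3 of them outside the plotted range), with the 9 tested MAP kinase phosphatases as red squares and 3 lists as coloured circles. Dusp1, Dusp8 and Dusp10 lie farther from 0 than most grey points at their levels. The MAP kinases and the atypical phosphatases, drawn together with Slingshot genes, lie among the grey points.

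The tested entries whose profile over the 4 libraries was nearest to that of Dusp1, by Euclidean distance of log2(TPM + 1) centred on each gene's mean, were Dok7, Ier3 and Enc1, at distances of 0.107, 0.117 and 0.120. Dok7, which encodes an activator of the muscle receptor kinase MuSK, had 61.5 and 66.3 TPM with BMP6 and 31.6 and 38.3 TPM in the controls. Enc1, which encodes an actin-binding Kelch protein, had 5.48 and 5.24 TPM with BMP6 and 2.31 and 2.40 TPM in the controls. In both genes the groups lay apart, which follows from their choice for a profile like that of Dusp1. Of all tested entries, 16.6% lay entirely above control. The limma adjusted p-values were 0.158 for Dok7 and 0.173 for Enc1, and neither passed.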

How the data were processed

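The members and gene lists were chosen with earlier results of these data known. PolyA RNA of the 4 MuSC cultures was made into unstranded Smart-seq 2 and Nextera XT libraries without molecular identifiers, so reads are not counts of molecules. As the study's methods describe, reads were aligned by the authors with STAR 2.7.11a to GRCm39 (GENCODE M32), used SAMtools 1.17, and assembled, merged and quantified transcripts with StringTie 2.2.1. The authors deposited TPM and FPKM per gene, each library's TPM summing to 1000000, and, per library, a signal of coverage, the mean depth over each transcript and exon. StringTie was run without correction for reads aligned to several places, so reads of near-identical copies count in full.

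The authors' comparison rested on read numbers rebuilt from coverage. The tables hold no counts, so limma 3.58.1 in R 4.3.3 (lmFit, eBayes with trend, two-sided) was run on log2(TPM + 1), which understates changes of low genes, over the 13128 entries with a mean of at least 1 TPM. A gene was called at an adjusted p under 0.1, and a fold of at least 2 or at most 0.5, the study's limit, was counted beside it. The study's filter on gene names was not applied, since taken literally it removes Fos. Rebuilt reads are coverage times length over a read length of 100 bases, and depth limits the low members, with 113 to 275 reads per library for Dusp7 and Dusp9. Per the labels nothing says how many animals a replicate holds, so p-values measure the spread between these cultures.

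In the labels, same-numbered libraries belong to the same biological replicate. Their deviations from the group means correlated at 0.563 across genes, and the first principal component (54.3% of the variance) separated the replicate numbers, the next (31.7%) the treatments. The fit without the replicate block was kept as the main one because the methods state no pairing term for the differential expression test, although they state a paired design for heatmaps.

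All members were named, and from each list the genes past the adjusted p, the 2 largest changes and the 2 highest levels. One gene that this rule names is not reported here. Overlapping genes and markers were named where a result touched them. Promoters came from the RefSeq table, and exon and copy features from GENCODE M39. The fit was also run on data simulated with the means and spread of these libraries, and its outcome is not given here. The alternatives comprised 15 chosen with the design and 2 exon-based ones added after the data were seen.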

Additional observations from a re-analysis of the deposited data

How the results depend on the processing

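Dusp1 kept its direction under all 17 alternatives (log2 fold change 0.80 to 0.99) and its call under 12. It lost the call without the filter on low values (0.90, adjusted p = 0.873), with eBayes without a trend (0.90, adjusted p = 0.188), with voom on rebuilt reads (0.88, adjusted p = 0.103), at a limit of 0.05 (0.90, adjusted p = 0.0590) and without control replicate 1 (0.80, adjusted p = 0.161). Dusp10 and Dusp6 stayed lower and Dusp8 higher under every alternative that could be run for them. In limma on log2(TPM + 1), the replicate block changed no other call on a member than those of Dusp8 and Dusp10. Under voom, adding the block also changed those of Dusp1 and Dusp6.

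Family members called higher numbered 0 without the filter, without a trend, with voom and at 0.05, and 2 with the block, alone or with voom. Members called lower numbered 1 with the block and 2 with voom and the block. Leaving out 1 library gave 0 to 2 members higher and 0 to 1 lower. Over all genes, calls past the adjusted p numbered 31 higher and 1 lower. They were 162 and 53 with the replicate block, 199 and 79 with voom and the block, 15 and 0 with voom, 14 and 0 without a trend, 13 and 0 at 0.05, 19 higher with a mean of at least 5 TPM, 33 lower without the filter, 19 higher without the last exon and 20 higher from the last exon alone. With the 2-fold limit, the 27 higher became 16 with a pseudocount of 5 or a mean of at least 5 TPM, 2 without the filter, 14 without a trend, 15 with voom, 13 at 0.05, 41 with the block (and 2 lower) and 65 with voom and the block (and 12 lower). Leaving out 1 library gave 2 to 11 lower past the adjusted p and 2 to 7 with the fold as well, from a spread that the lone library is assumed to share. The ERK-responsive genes called numbered 4 with the block, alone or with voom, and 0 without the filter, without a trend, with voom, at 0.05, with either exon alternative and without any 1 library. No other list gave a call.

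Small values turned sign. Dusp2, at 0.010, was -0.024 with quantile normalization, -0.0094 with FPKM, -0.012 with voom with or without the block and -0.028 from the last exon. Leaving out 1 library gave -0.0031 to 0.024 for Dusp2, -0.14 to 0.26 for Dusp4, -0.57 to 0.24 for Dusp5, -0.28 to 0.16 for Dusp7 and -0.012 to 0.41 for Dusp16. Causes were not tested beyond what each setting changes, fewer samples or other entries tested. Depth limits the exons of Dusp8 before the last and the members near 1 TPM.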

Other observations

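Most members were represented by 1 transcript. Dusp16 was divided over 3 in the deposited files, and the shorter ENSMUST00000149776.3 took 32.7% and 18.0% of its TPM with BMP6 and 10.3% and 21.2% in the controls, so the groups overlapped. A second Dusp6 transcript, ENSMUST00000220291.2, was listed at 0.126 and 0.142 TPM with BMP6 and at 0 in both controls, against 2.47 and 2.62 TPM with BMP6 and 4.11 and 4.23 TPM in the controls for the main one. The Dusp1 entry ends at position 26781102 of chromosome 17 because of a long minor transcript, ENSMUST00000235532.2, which had 0.202 to 0.320 TPM, so the main transcript carried at least 99.7% of the Dusp1 value in every library.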
